A study of Mus musculus with 7 samples.

Results

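Cytosolic sulfotransferases (*Sult* genes) were followed in the liver of mice with and without *Rbpj*, the gene of the transcription factor at the end of Notch signalling. The 10 members, *Sult1a1*, *Sult1b1*, *Sult1c2*, *Sult1d1*, *Sult1e1*, *Sult2a1*, *Sult2a2*, *Sult2a4*, *Sult2a6* and *Sult3a1*, were chosen by values of the same arrays and found by the gene name printed in the array files. They are read by 14 of the 55681 probes. A probe was tested if every array of 1 or both genotypes showed it well above background. This held for 12 probes of 9 members, and 18755 genes in all had such a probe. Because the members were selected on the comparison of the genotypes, their differences are given as a description without a test.

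RNA of whole liver came from 7 untreated C57BL/6J mice at the age of 4 weeks, 1 animal and 1 single-dye array each. The 4 *Rbpj*+/+ animals were *AlfpCre*- with both *Rbpj* alleles floxed and had no cholestasis, and the 3 *Rbpj*-/- animals carried the same floxed alleles with *AlfpCre*+ and were cholestatic. *AlfpCre* joins the albumin promoter to enhancers of alpha-fetoprotein and acts in the common precursors of hepatocytes and bile duct cells. The genotypes therefore differ in the Cre transgene, in *Rbpj* and in bile flow, which cannot be told apart here. At this age the authors also reported liver necrosis, immune cell infiltrates, hepatocyte proliferation and fibrosis in *Rbpj*-/- mice, and a lower body weight. These cannot be told apart from the genotype either. All values below follow one order of the arrays. It starts with Rbpj +/+_1155 and Rbpj +/+_1156, goes on with Rbpj +/+_1024 and then Rbpj +/+_991, and ends with Rbpj -/-_N3, Rbpj -/-_N5 and Rbpj -/-_2866.

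Sulfotransferases of the cytosol move a sulfonate group from the donor PAPS to a hydroxyl or amino group. The product is more soluble in water, leaves the cell by export pumps and is often less active. In liver the SULT1 enzymes act mostly on phenols, oestrogens, catecholamines and thyroid hormones, and the SULT2A enzymes on hydroxysteroids and bile acids. Several of the mouse genes are known to differ between the sexes in liver.

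The mouse *Sult2a* genes lie in a cluster of near copies on chromosome 7, and how far a probe can tell them apart decides what its value means. A stretch of 30 bases is shown for the probes of *Sult2a1*, *Sult2a2* and *Sult2a4*, with the 3 positions in capitals at which the stretch of *Sult2a2* differs from the others.

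Sult2a1: tatcttgaatacctAGatGtggtcatagaa
Sult2a2: tatcttgaatacctGAatAtggtcatagaa
Sult2a4: tatcttgaatacctAGatGtggtcatagaa

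In this stretch the probes of *Sult2a1* and *Sult2a4* are identical. Aligned over 54 bases they share 51 bases, with an unbroken run of 36, and the probes of *Sult2a1* and *Sult2a2* share 54 of 59. The array's annotation lists transcripts of both *Sult2a1* and *Sult2a4* for the *Sult2a1* probe and for the *Sult2a4* probe, and transcripts of *Sult2a2* and *Sult2a5* for the *Sult2a2* probe. The 3 probes named *Sult2a6* start at bases 720, 738 and 437 of their transcripts. They are shown in this order and whole, because they disagree in the results. The 2 positions at which the first and the second differ are in capitals, and the third is in lower case throughout.

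Sult2a6 probe from base 720: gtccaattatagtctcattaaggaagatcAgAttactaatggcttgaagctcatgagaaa
Sult2a6 probe from base 738: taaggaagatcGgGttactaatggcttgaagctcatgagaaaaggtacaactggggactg
Sult2a6 probe from base 437: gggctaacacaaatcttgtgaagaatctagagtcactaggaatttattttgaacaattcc

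The first lists transcripts of *Sult2a1* and *Sult2a6*, the second of *Sult2a1*, *Sult2a5* and *Sult2a6*, and the third of *Sult2a6* alone. The first and the second share 40 of 42 aligned bases. Of the 14 probes, 9 share no run of 20 bases with any other probe on the array, among them all *Sult1* and *Sult3a1* probes and the *Sult2a6* probe from base 437. The values of *Sult2a1*, *Sult2a2*, *Sult2a4* and *Sult2a6* below are those of the named probes and may be read from one another's transcripts.

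The hydroxysteroid and bile acid sulfotransferases showed the largest differences. The *Sult2a1* probe (chromosome 7, 14381602 to 14381661, mouse build mm9) had background-subtracted intensities of 17.2, 2.36, 2.62 and 29.6 in *Rbpj*+/+ liver. It had 6308, 10002 and 20014 in *Rbpj*-/- liver. Every *Rbpj*-/- array lay more than 2 orders of magnitude above every *Rbpj*+/+ array, and the signal was well above background in Rbpj +/+_1155 and Rbpj +/+_991 but not in Rbpj +/+_1156 and Rbpj +/+_1024. After each array's 75th percentile was subtracted on the log2 scale, the mean was -3.39 ± 1.75 (SD, n = 4) against 6.38 ± 0.97 (SD, n = 3). The log2 difference between the genotypes was 9.77 (standard error 0.87). Its size rests in part on *Rbpj*+/+ signals near background, and it was 6.82 with normexp, another background correction.

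The *Sult2a2* probe (14256089 to 14256148) read 19.1, 2.10, 3.32 and 36.9 in *Rbpj*+/+ and 7780, 10430 and 15857 in *Rbpj*-/- liver. The same 2 *Rbpj*+/+ animals, Rbpj +/+_1155 and Rbpj +/+_991, were above background. The log2 difference was 9.61 (standard error 0.89), and 6.89 with normexp. The *Sult2a4* probe (14495026 to 14495085) read 5.17, 2.07, 1.83 and 7.81 in *Rbpj*+/+ and 3035, 4489 and 7910 in *Rbpj*-/- liver. None of the *Rbpj*+/+ arrays showed it well above background. The log2 difference was 9.67 (standard error 0.53), and 5.96 with normexp. With the percentile shift and a floor under the *Rbpj*+/+ values, the signal of this probe, which may include *Sult2a1* transcripts, was 382-fold higher in *Rbpj*-/- liver. For this fold, the *Rbpj*+/+ side was taken per array as the higher of the probe's own value and the dimmest signal that counted as well above background. The fold is not a strict lower limit, as normexp gave a smaller difference.

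The *Sult2a6* probes did not give 1 answer. The probe from base 720 (14811213 to 14811272) read 8.50, 2.08, 1.80 and 11.97 in *Rbpj*+/+ and 1567, 2656 and 6816 in *Rbpj*-/- liver, a log2 difference of 8.70 (standard error 0.73). The probe from base 738, for which the array's design gives no position, read 7.51, 14.2, 3.35 and 26.3 against 2828, 3945 and 12811, a log2 difference of 8.33 (standard error 0.72). The probe from base 437 (14835693 to 14835752) read 1.68, 2.85, 2.21 and 2.04 against 11.3, 3.60 and 8.43 and was well above background on 0 of 7 arrays. Thus both *Sult2a6* probes that also list *Sult2a1* transcripts were bright in *Rbpj*-/- liver, and the probe that lists *Sult2a6* alone was not measurable in either genotype. Which transcript the bright probes read was not tested.

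Within the *Rbpj*-/- animals, all 5 bright *Sult2a* probes were highest in Rbpj -/-_2866, intermediate in Rbpj -/-_N5 and lowest in Rbpj -/-_N3. The highest animal exceeded the lowest 2.04-fold for *Sult2a2*, 3.17-fold for *Sult2a1* and 4.53-fold for the *Sult2a6* probe from base 738. Among the *Rbpj*+/+ animals, Rbpj +/+_991 had the highest intensity on each of them.

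**Figure D1:**
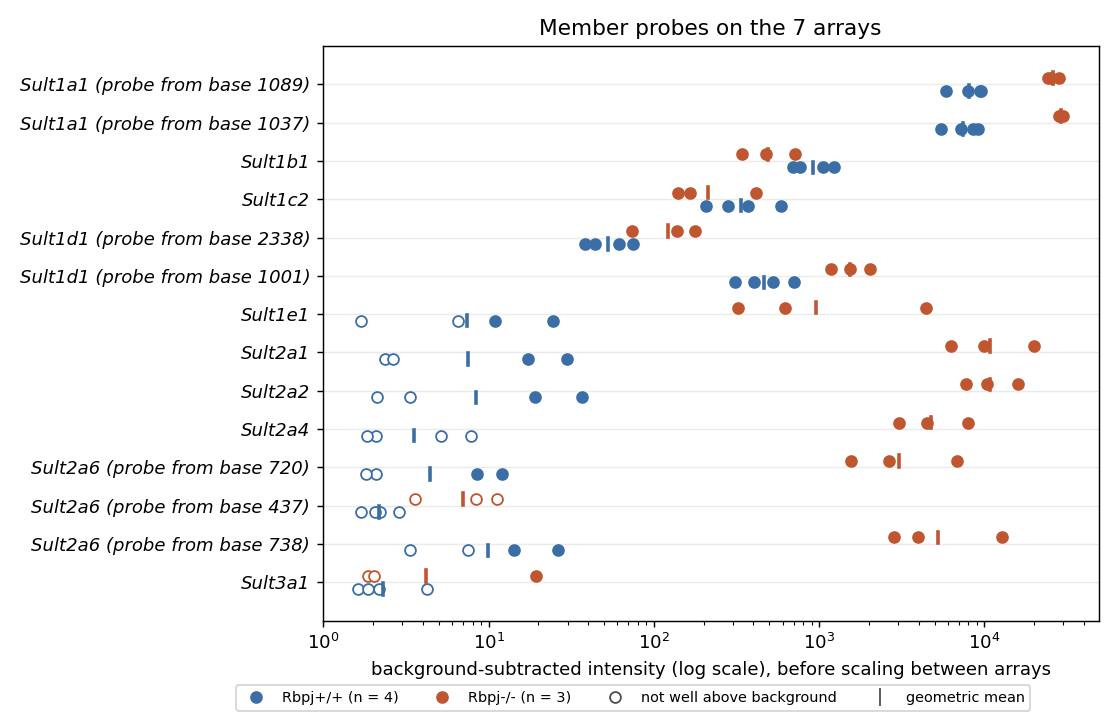
Background-subtracted intensity of the 14 member probes on a log axis, before scaling between arrays, 1 point per array with a bar for the geometric mean of each genotype. Open points were not well above background. *Sult1e1* and the bright *Sult2a* probes lay near background in *Rbpj*+/+ and between 321 and 20014 in *Rbpj*-/- liver. Intensities of different probes do not rank the genes.

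*Sult1e1*, the oestrogen sulfotransferase, was the other member that went from near background to a clear signal. Its probe (chromosome 5, 88005187 to 88005246) read 1.70, 6.53, 10.98 and 24.5 in *Rbpj*+/+ and 621, 4437 and 321 in *Rbpj*-/- liver. The genotypes did not overlap, and Rbpj +/+_1024 and Rbpj +/+_991 were above background among the *Rbpj*+/+ animals. The log2 difference was 6.29 (standard error 1.10). It was 3.58 with normexp, and without single animals it lay between 5.19 and 7.02. In contrast to the *Sult2a* probes, *Sult1e1* was highest in Rbpj -/-_N5 and lowest in Rbpj -/-_2866.

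*Sult1a1*, the main phenol sulfotransferase, was bright in both genotypes and higher in *Rbpj*-/- liver on both of its probes. The probe on chromosome 7 from 133816605 to 133816664 read 9348, 5851, 9482 and 7961 in *Rbpj*+/+ and 28456, 24266 and 25431 in *Rbpj*-/- liver. The second, from 133816657 to 133816716, read 9183, 5430, 8529 and 7207 against 29989, 28175 and 28540. The *Rbpj*-/- animals lay close together and above all *Rbpj*+/+ animals. Part of the gap in intensity is the scale of the arrays, whose 75th percentile was 57.5 to 103 in *Rbpj*+/+ and 118 to 143 in *Rbpj*-/- liver. After scaling, the probes gave folds of 1.96 and 2.35, log2 differences of 0.97 (standard error 0.29) and 1.23 (standard error 0.28).

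*Sult1d1*, which acts on catecholamines in mice, had 2 probes. The brighter (chromosome 5, 87985008 to 87985067) read 405, 311, 707 and 525 in *Rbpj*+/+ and 1547, 2024 and 1182 in *Rbpj*-/- liver. Its intensities did not overlap, but its scaled values did, and the log2 difference was 1.01 (standard error 0.42). The dimmer probe (87983671 to 87983730) read 44.1, 38.5, 74.7 and 61.8 against 138, 178 and 74.1, with a log2 difference of 0.48 (standard error 0.43) that is about as large as its error.

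The lower members were *Sult1b1*, which acts on thyroid hormones, and *Sult1c2*, another gene of the SULT1 branch. The *Sult1b1* probe (chromosome 5, 87943760 to 87943819) read 1227, 694, 770 and 1054 in *Rbpj*+/+ and 341, 711 and 479 in *Rbpj*-/- liver. Its intensities overlapped between Rbpj +/+_1156 and Rbpj -/-_N5, whereas its scaled values did not, and the log2 difference was -1.63 (standard error 0.32). The *Sult1c2* probe (chromosome 17, 53969205 to 53969264) read 587, 373, 206 and 279 against 141, 165 and 415. The animal Rbpj -/-_2866 stood above the other *Rbpj*-/- animals for this gene, as it did for the *Sult2a* probes. Its intensities overlapped between the genotypes. Its scaled values were only just apart, with 1.84 in Rbpj +/+_1024 against 1.81 in Rbpj -/-_2866. The log2 difference of *Sult1c2* was -1.38 (standard error 0.41), and it was -1.93 without Rbpj -/-_2866 and -1.01 without Rbpj -/-_N3.

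*Sult3a1*, a sulfotransferase of amines, was not measurable. Its probe (chromosome 10, 33599125 to 33599184) read 1.62, 4.24, 1.87 and 2.17 in *Rbpj*+/+ and 19.3, 1.87 and 2.03 in *Rbpj*-/- liver, and was above background in Rbpj -/-_N3 alone. Dim probes were brighter on Rbpj -/-_N3 and Rbpj +/+_1156 in general, with a median intensity over all probes of 31.2 and 19.7 against 5.40 to 8.80 on the other 5 arrays. No direction is given for *Sult3a1*.

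Of the 9 members with a tested probe, 7 were higher and 2 lower in *Rbpj*-/- liver, with a median log2 difference of 6.29. Each gene is represented by its brightest tested probe. *Sult1e1*, *Sult2a1*, *Sult2a2*, *Sult2a4* and *Sult2a6* met the filter only through the *Rbpj*-/- arrays, so they could enter the count only by their signal there. *Sult2a1*, *Sult2a2*, *Sult2a4* and *Sult2a6* are counted as separate members although their probes may be read from one another's transcripts. The median over all tested genes was -0.13. At an adjusted p below 0.1 in limma, 6 members were higher and 2 lower, and *Sult1d1* did not pass. Of all tested genes 34.2% passed, 14.6% higher and 19.5% lower. The genotypes did not overlap in 8 members and in 36.6% of all tested genes. These counts describe the choice of the members and the filter, and nothing is read from them.

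**Figure D2:**
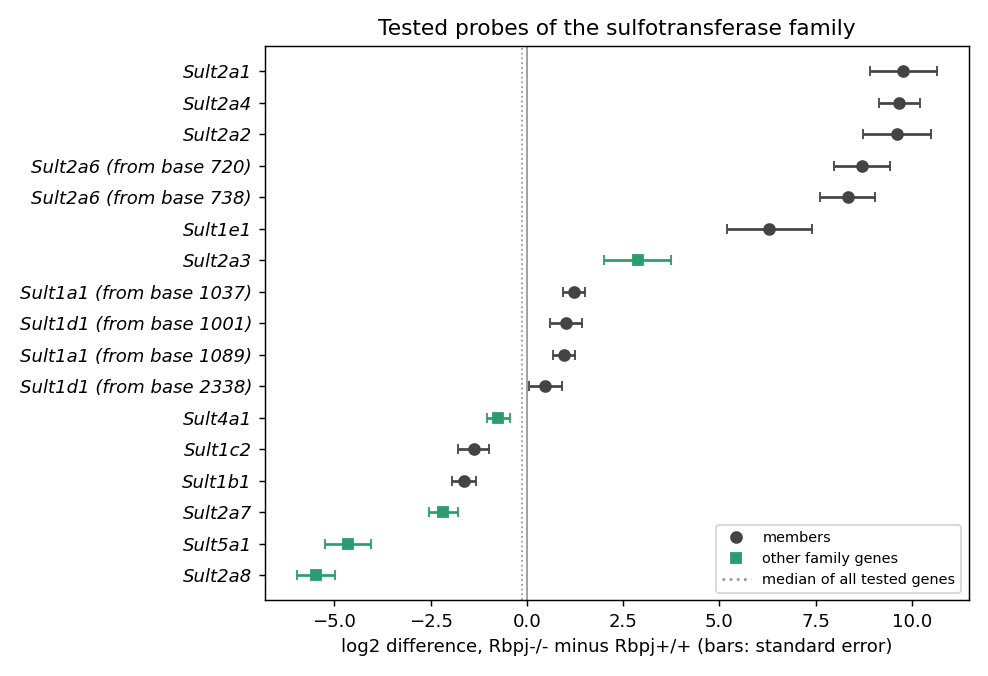
Log2 difference between *Rbpj*-/- and *Rbpj*+/+ liver for each tested probe of the family, with its standard error as a bar. Circles are members, squares are family genes outside them, and the dotted line is the median of all tested genes at -0.13. The values run from 9.77 for *Sult2a1* to -5.49 for *Sult2a8*.

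The members were also compared over other ways of processing. None changed sign under quantile normalization, normexp, another percentile, the authors' processed values or the removal of any single animal. Normexp adds an offset that compresses dim signals, and the 6 probes near background in *Rbpj*+/+ liver gave smaller differences with it, between 3.58 and 6.89. Without single animals the difference of *Sult2a1* lay between 9.17 and 10.45, the higher value without Rbpj +/+_991.

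**Figure D3:**
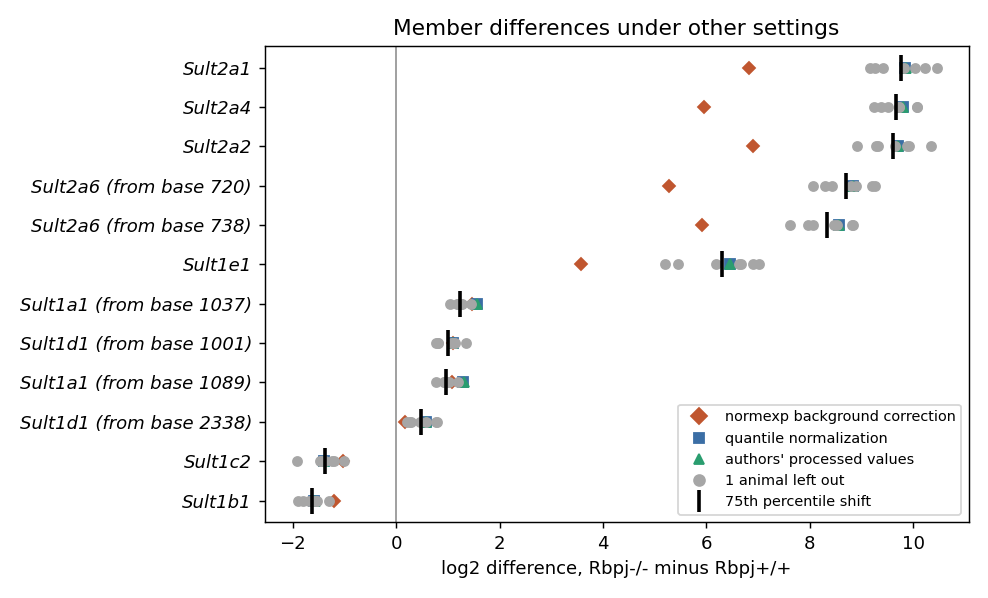
Log2 difference of the 12 tested member probes with the percentile shift (black bars), with quantile normalization, normexp or the authors' processed values, and without each animal in turn (grey). Normexp gave 5.27 to 6.89 for the *Sult2a* probes and 3.58 for *Sult1e1*, and no probe crossed 0.

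Among the other cytosolic sulfotransferases, more of the tested genes fell than rose. The members were chosen on this contrast and did not share 1 direction, so nothing is read from a comparison with them. Of 10 such genes with a probe, 5 were tested and all 5 passed in limma, 1 higher and 4 lower in *Rbpj*-/- liver, beside 14.6% higher and 19.5% lower among all tested genes. *Sult2a3*, the gene that rose, met the filter only through the *Rbpj*-/- arrays, and *Sult5a1* only through the *Rbpj*+/+ arrays. With detection on all 7 arrays 3 genes were tested, and 0 were called higher and 3 lower. *Sult2a8*, known as a bile acid sulfotransferase of mouse liver, read 15974, 9655, 10119 and 15341 in *Rbpj*+/+ and 260, 349 and 1069 in *Rbpj*-/- liver. It fell by 5.49 on the log2 scale (standard error 0.49, adjusted p = 0.000442 in limma). It is a neighbour of the *Sult2a* members on chromosome 7, with a probe from 14996296 to 14996355, and was lower where their bright probes were higher.

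*Sult5a1* read 344, 328, 116 and 315 in *Rbpj*+/+ and 39.6, 5.32 and 22.4 in *Rbpj*-/- liver. It fell by 4.65 (standard error 0.59, adjusted p = 0.00176 in limma), and 2 of 3 *Rbpj*-/- arrays were above background. *Sult2a7* read 60.003, 50.7, 42.0 and 38.4 against 23.3, 8.66 and 26.0 and fell by 2.17 (standard error 0.37, adjusted p = 0.0058 in limma). *Sult2a8*, *Sult5a1* and *Sult2a7* passed under every alternative in which they were tested.

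The remaining calls were less firm. The brightest *Sult4a1* probe read 138, 52.8, 60.2 and 89.0 in *Rbpj*+/+ and 89.6, 63.0 and 84.9 in *Rbpj*-/- liver, overlapping, and fell by 0.74 (standard error 0.29, adjusted p = 0.0968 in limma). It did not pass in 9 of 15 alternatives, among them the removal of any single animal except Rbpj +/+_1156, and its adjusted p ranged from 0.0187 to 0.361. *Sult2a3* read 3.98, 15.007, 2.001 and 2.15 in *Rbpj*+/+ and 34.3, 17.8 and 190 in *Rbpj*-/- liver. It rose by 2.88 (standard error 0.87, adjusted p = 0.0443 in limma) with overlapping values and 1 of 4 *Rbpj*+/+ arrays above background. Its call was lost without Rbpj +/+_1024, without Rbpj -/-_2866, with normexp and without the filter for dim probes, and its adjusted p ranged from 0.0246 to 0.319. The *Sult2a3* probe, shown because it also lists a *Sult2a4* transcript, has the following sequence.

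Sult2a3: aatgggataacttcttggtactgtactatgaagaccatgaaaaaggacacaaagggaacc

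The other 5 genes, *Sult1c1*, *Sult2b1*, *Sult3a2*, *Sult6b1* and *Sult6b2*, were above background on all arrays of neither genotype. *Sult2a5* has no probe of its own. *Sult2b1*, which acts on cholesterol, read 3.67, 6.18, 2.20 and 2.35 in *Rbpj*+/+ and 28.8, 17.8 and 7.82 in *Rbpj*-/- liver. It was above background in Rbpj -/-_N3 and Rbpj -/-_N5 alone, its scaled values overlapped, and no fold is given. *Sult3a2* and *Sult6b2* were above background on 1 array of each genotype.

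Promoters were examined for letters that nuclear receptors bind, since bile acid and xenobiotic receptors are known to act on *Sult2a* genes. The table of RefSeq promoters (GRCm38.p6, 250 bases before to 50 after the gene start) held 8 of the 10 members, without *Sult2a1* and *Sult2a2*. Motifs were searched on both strands and were chosen after the promoters had been seen. The half-site AGGTCA was found in 16.3% of all 32851 promoters and in 3 of 20 of the family. The half-site AGTTCA was found in 4597 promoters in all and in 8 of 20 of the family. The longer motif AGTTCATGA contains the second half-site and extends it towards an inverted copy. It was found in 71 promoters in all, or 0.216%, among them *Sult2a4*, *Sult2a5* and *Sult2a6*. Windows of 60 bases around it are shown because these near copies share it, with its reverse complement in capitals and each on the strand of its gene.

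Sult2a5, chr7:13623783-13623842, plus strand: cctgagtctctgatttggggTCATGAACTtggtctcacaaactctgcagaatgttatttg
Sult2a4, chr7:13989779-13989838, minus strand: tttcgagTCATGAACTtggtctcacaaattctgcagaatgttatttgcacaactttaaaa
Sult2a6, chr7:14255039-14255098, minus strand: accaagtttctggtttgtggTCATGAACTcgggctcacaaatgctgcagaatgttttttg

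The capitals begin 164 bases before the gene start in *Sult2a5*, 243 in *Sult2a4* and 208 in *Sult2a6*. The *Sult2a8* promoter, whose gene fell, holds both half-sites but not the longer motif. The match is a description of letters and shows no binding.

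Genes that act before and after the sulfotransferases were taken from fixed lists. *Papss1* and *Papss2*, which make PAPS, had log2 differences of 0.11 (standard error 0.24, adjusted p = 0.76 in limma) and 0.33 (standard error 0.34, adjusted p = 0.501 in limma). Of 19 tested genes for PAPS supply and sulfate, 0 rose and 4 fell, or 21.1%, which is near the 19.5% that fell among all tested genes. Among the latter were *Csad*, which makes hypotaurine for taurine (-1.36, adjusted p = 0.0436 in limma), *Mpst*, a sulfur transferase (-1.34, adjusted p = 0.00497 in limma), and *Cbs*, an enzyme of the path from homocysteine to cysteine (-1.04, adjusted p = 0.0273 in limma). The count was 2 without Rbpj -/-_N3 and 2 without Rbpj -/-_N5, and *Csad* did not pass in either. In these fits 4341 of 19082 and 3716 of 19028 tested genes passed. With normexp 3 genes of the list rose and 3 fell, *Papss2* among those that rose (adjusted p = 0.0741 in limma, and 0.0741 to 0.844 over its alternatives), and 1 rose under quantile normalization and in the authors' processed values.

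Sulfatases remove sulfate groups. Of 13 tested genes 0 rose and 2 fell, 15.4% called in all against 34.2% of all tested genes. *Arsg* fell by 1.70 (adjusted p = 0.00324 in limma) and *Sts*, the steroid sulfatase, by 0.55 (adjusted p = 0.0564 in limma). *Sts* did not pass when any 1 of Rbpj +/+_1024, Rbpj +/+_991, Rbpj -/-_N3, Rbpj -/-_N5 or Rbpj -/-_2866 was left out, and *Arsg* was then the only call. Under quantile normalization and the authors' processed values 2 sulfatases rose, and 3 rose with normexp and with the percentile of probes detected on all arrays.

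Among transporters of sulfated steroids and bile acids, 3 rose and 7 fell of 14 tested, beside 14.6% and 19.5% of all tested genes. The genes that rose were *Slc51b*, a subunit of a basolateral organic solute transporter that carries bile acids (3.75, adjusted p = 0.000487 in limma), *Abcb1a* (3.06, adjusted p = 0.00245 in limma) and *Abcc4*, which exports sulfated bile acids and steroids (2.11, adjusted p = 0.00297 in limma). The largest falls were in *Slco1a1* (-7.87, adjusted p = 3.63e-05 in limma), *Slc22a7* (-2.20, adjusted p = 0.0177 in limma) and *Slco2b1* (-1.97, adjusted p = 0.0059 in limma), which encode uptake transporters. Genes for exporters did not move as 1 group. *Abcc6* (-0.99, adjusted p = 0.0192 in limma) and *Abcg2* (-0.88, adjusted p = 0.0599 in limma) fell, *Abcc2*, *Abcc3* and *Abcb11* did not pass, and *Slc51a*, the partner of *Slc51b*, was not tested. These exporters were named after their values were seen.

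Of 29 tested regulators, transcription factors and hormone pathway genes known to act on sulfotransferase genes, 2 rose and 11 fell. This is 44.8% called, against 34.2% of all tested genes. The largest falls were in *Nr1h4*, the bile acid receptor FXR (-1.52, adjusted p = 0.00321 in limma), *Ppara* (-1.40, adjusted p = 0.00962 in limma) and the growth hormone receptor *Ghr* (-1.12, adjusted p = 0.023 in limma). *Pparg* (1.38, adjusted p = 0.0177 in limma) and *Ahr* (0.80, adjusted p = 0.0508 in limma) rose. *Nr1i2*, the xenobiotic receptor PXR, had a log2 difference of 0.01 (adjusted p = 0.985 in limma) and *Nr1i3*, the related receptor CAR, of -0.47 (adjusted p = 0.191 in limma). Both were named after their values were seen. The count of 13 depended on single animals. It was 4 without Rbpj -/-_N5, 6 without Rbpj +/+_1024 or Rbpj -/-_N3 and 7 without Rbpj +/+_991. Calls over all tested genes dropped too, from 6406 of 18755 to 3716 of 19028 without Rbpj -/-_N5. They were 4268 of 18981 without Rbpj +/+_1024, 4341 of 19082 without Rbpj -/-_N3 and 4968 of 18889 without Rbpj +/+_991. The call of *Ahr* was lost without Rbpj +/+_1024, Rbpj +/+_991 or Rbpj -/-_N5.

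Because liver sulfotransferases are known to differ between the sexes and the labels give no sex, genes with a sex bias in liver were read beside them. Of 16 tested male-biased genes, 0 rose and 15 fell, beside 14.6% higher and 19.5% lower among all tested genes. The median log2 difference was -4.36. *Slco1a1*, named above among the transporters, is 1 of the genes that fell. The largest falls were in *Hsd3b5* (-10.94), *Serpina4-ps1* (-10.18) and *Cyp4a12b* (-9.93), with adjusted p of 0.000379, 0.000205 and 0.000301 in limma and 1 of 3 *Rbpj*-/- arrays above background for each. *Cyp2u1*, named after its values were seen, did not pass (0.21, adjusted p = 0.558 in limma), and 1 gene of the list rose under quantile normalization, normexp and the authors' processed values. Of 15 tested female-biased genes, 7 rose and 0 fell, beside the same shares of all tested genes, with a median of 0.86. The largest rises were in *Cyp2b13* (3.62, adjusted p = 0.0139 in limma), *Cyp2b9* (2.66, adjusted p = 0.0399 in limma) and *Prom1* (2.66, adjusted p = 0.0059 in limma), and without Rbpj +/+_1156 1 gene of the list fell. *Cyp2b13* and *Cyp2b9* were above background on 1 of 4 *Rbpj*+/+ arrays and did not pass with normexp, and *Cyp2b9* did not pass without Rbpj +/+_1024.

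Of the sex-linked genes, the Y-linked *Ddx3y* read 327 to 695 in *Rbpj*+/+ and 653 to 913 in *Rbpj*-/- liver, and *Eif2s3y* 396 to 672 and 638 to 919. Both were well above background on 7 of 7 arrays, and their adjusted p was 0.827 and 0.585 in limma. The probes of *Xist* were not above background except for 1 probe with an intensity of 13.2 in Rbpj +/+_1155. *Uty* had 1 tested probe (adjusted p = 0.818 in limma), and *Kdm5d* was above background on 0 of 7 arrays. By *Ddx3y* and *Eif2s3y* all 7 animals read as male. The part of the sex-biased genes in the sulfotransferase differences was not tested.

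**Figure D4:**
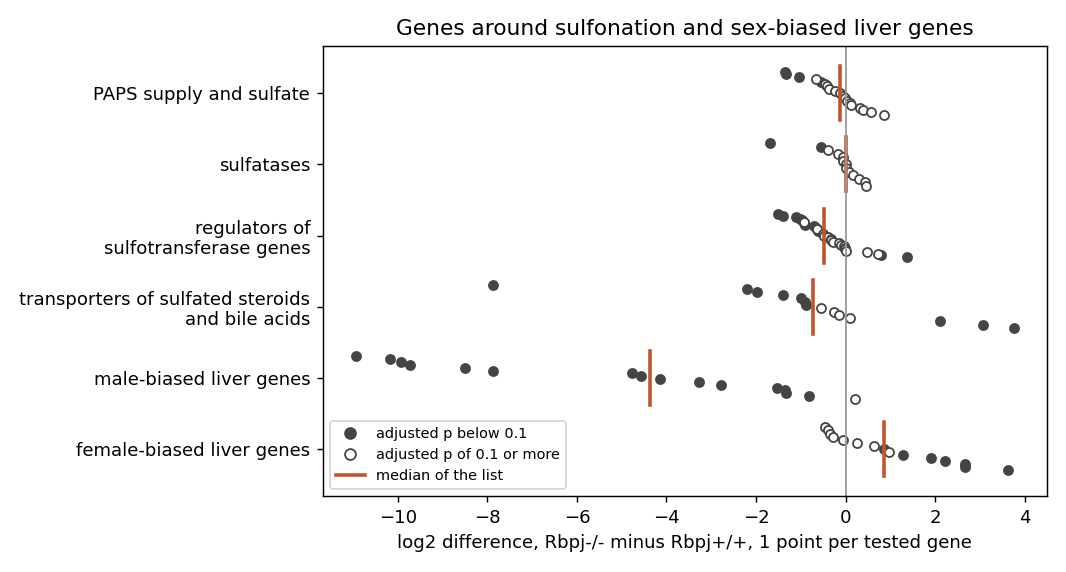
Log2 difference of each tested gene in the lists around sulfonation and in the sex-biased lists, with filled points for an adjusted p below 0.1 and a bar for the median of the list. Male-biased genes have a median of -4.36 and female-biased genes of 0.86, and the genes for PAPS supply and the sulfatases lie around 0.

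Markers of several liver cell types moved with the genotype as well, beside 14.6% higher and 19.5% lower among all tested genes. Hepatocyte markers were well above background on all 7 arrays in 11 of 11 tested genes, and 7 fell and 0 rose (median -0.74). Their mean level per array was 8.50 to 9.08 in *Rbpj*+/+ and 8.19 to 8.46 in *Rbpj*-/- (log2 scaled). Before scaling, the intensities of the markers that fell overlapped, as in *Alb* with 66330 to 100251 in *Rbpj*+/+ and 70785 to 81831 in *Rbpj*-/-. Their fall is thus given for the scaled values only. Whether it depends on the scaling between arrays was not tested, as the cell type lists were not read under another scaling. Macrophage markers rose in 6 of 7 and stellate cell and fibroblast markers in 5 of 7, with 0 falls, at mean levels of 2.53 to 3.06 against 4.56 to 4.77 and of 0.72 to 0.86 against 1.35 to 2.09. B and T cell markers fell in 5 of 6. Cholangiocyte markers rose in 2 of 6 and erythroid markers fell in 1 of 3. Both are 33.3% called, near the 34.2% of all tested genes. Neutrophil markers rose in 2 and fell in 1 of 5, and endothelial markers rose in 2 and fell in 1 of 6. In whole liver, fewer cells of a type and less RNA per cell cannot be told apart, and the part of cell composition in the sulfotransferase differences was not tested. The deleted gene itself fell on its brighter probe, with intensities of 200.3, 104, 72.3 and 131 in *Rbpj*+/+ and 112, 75.6 and 84.7 in *Rbpj*-/- liver (log2 difference -1.13, standard error 0.24, adjusted p = 0.0115 in limma). Whether this probe lies in the deleted part is not given in the sources used here. All arrays lay on 1 slide, *Rbpj*+/+ in row 1 and *Rbpj*-/- in row 2, so that row and genotype cannot be told apart.

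The genes outside the family with profiles most like *Sult2a1* were sought among 18741 tested genes. Likeness was the Euclidean distance between log2 profiles over the 7 arrays, each centred on its mean. *Sult2a1* was taken because its log2 difference was the largest of the members, an order that changed with normexp and without Rbpj +/+_1156, Rbpj +/+_1024 or Rbpj -/-_2866, where *Sult2a2* or *Sult2a4* came first. The nearest were *H19*, an imprinted fetal liver RNA (distance 3.83, log2 difference 7.44), the transcript ENSMUST00000121135 (4.09, 7.82) and *Gipc2* (4.50, 6.60). For *Sult1b1*, which had the most negative difference except without Rbpj -/-_2866, where *Sult1c2* did, they were *Lor* (0.31, -1.58), the transcript ENSMUST00000160002 (0.53, -1.85) and *Cyp2d11*, a cytochrome P450 (0.56, -1.72). The distance of a gene is dominated by the difference between the genotypes, which chose the members, and the lists are a description.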

How the data were processed

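Whole liver RNA of 4 *Rbpj*+/+ and 3 *Rbpj*-/- mice was measured on arrays. The deposited intensity values are spot signals with background subtracted, read by the authors with Agilent Feature Extraction 10.7.3.1, not normalised between arrays, and mean and local background intensities were used for normexp. Per the file headers the arrays also carry quality marks, of which the methods name 5. The deposited log2 values of the series matrix are the authors' own normalised and median-centred values, used as an alternative. They look quantile-normalised, although the methods state a percentile shift, and they are nearly the same setting as the quantile normalization tried here, with log2 differences of the member probes at most 0.0046 apart.

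Spots marked as non-uniform or as outliers were left out (146 probe values), and 0 spots were saturated. Spots of a probe were averaged as log2 values, and each array was shifted by its 75th percentile over probes. The share of probes well above background was 41.1% to 64.9% per array, and precision is limited by the 7 arrays. The fit used limma 3.58.1 (R 4.3.3), two-sided, with Benjamini-Hochberg adjustment over all tested probes and a threshold of 0.1. For each gene the brightest tested probe was used. Tables and figures were made with Python 3.11.15. Names came from accessions for 28331 probes, from symbols for 2209 and from synonyms for 174, and 24967 kept the array's name. The fit was tested on simulated data.

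The members, lists and alternatives were chosen with earlier results of these data known. Values were named for all members and family genes, sex-linked genes, *Rbpj*, *Papss1*, *Papss2*, and up to 3 largest rises and 3 largest falls of each list that passed (for cell type markers, counts only). The alternatives were quantile normalization, normexp (offset 50), another percentile, the series matrix, detection on all 7 arrays, limma-trend, no filter for dim probes, the mean of a gene's probes, a threshold of 0.05 and each animal left out. A percentile over single spots was added after seeing the data.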

Additional observations from a re-analysis of the deposited data

Results flagged for a closer look

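*Sult2a3* in *Rbpj*+/+ liver had 1 animal far from the others. Its intensity was 15.007 in Rbpj +/+_1156 and 3.98, 2.001 and 2.15 in Rbpj +/+_1155, Rbpj +/+_1024 and Rbpj +/+_991, and the gap to the nearest animal took a share of 0.834 of the range of the scaled log2 values. Of 17 such groups examined, 1 was marked, and chance marks about 1 in 20. The probe was above background in Rbpj +/+_1156 alone among the *Rbpj*+/+ animals. Dim probes were brighter on that array in general, with a median intensity over all probes of 19.7. It was 5.40 to 8.15 on the other *Rbpj*+/+ arrays. Over the alternatives the log2 difference of *Sult2a3* lay between 0.49 and 3.61.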

How the results depend on the processing

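The 7 higher and 2 lower members kept their direction under each scaling, background and single-animal alternative. Most list counts moved over 1.5 times under some alternative, and the cause was not tested. In some of these alternatives fewer genes or samples entered. Without the filter for dim probes 3 other sulfotransferases, 1 gene of PAPS supply, 1 sulfatase, 2 regulators and 6 transporters passed. With the filter these numbers were 5, 4, 2, 13 and 10. Calls over all genes changed too, with 1639 of 35666 without the filter and 6406 of 18755 with it. With detection on all 7 arrays 3 other sulfotransferases passed, of 3 tested. At an adjusted p below 0.05, 1 sulfatase and 7 regulators passed. Sulfatases numbered 4 under quantile normalization, 5 with normexp, 5 with the percentile of probes detected on all arrays and 4 in the series matrix. Of all 18755 tested genes 5963, 7760, 6633 and 5724 passed in these settings, in this order. With 1 animal left out the counts ranged from 3 to 5 for other sulfotransferases and from 2 to 6 for PAPS supply. They ranged from 1 to 2 for sulfatases, from 4 to 13 for regulators and from 9 to 11 for transporters. The count of members that were higher stayed at 7. In these fits the genes called in all ran from 3716 of 19028 without Rbpj -/-_N5 to 7100 of 18788 without Rbpj +/+_1156. Over all genes 42.8% of calls were higher, against 52.3% under quantile normalization, 51.2% with the percentile of detected probes, 54.9% in the series matrix and 36.3% with the percentile over single spots, and the median difference moved from -0.13 to -0.04, -0.05, -0.03 and -0.19. No paired analysis was possible because the labels give the genotypes no shared replicate numbers. Signals near background limit the size of the differences of *Sult1e1* and the *Sult2a* probes.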
